A study of Homo sapiens with 8 samples.

Results

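Arrays labelled as carrying an shRNA against IRE1 were set against arrays labelled as carrying an shRNA against XBP1 in 2 human multiple myeloma cell lines. The comparison took 4 of the study's 8 Affymetrix arrays, chosen by their labels and paired by line: 1 array of each shRNA from RPMI-8226 and 1 of each from JJN3. RPMI-8226 and JJN3 are established lines grown from malignant plasma cells. The groups were IRE1 shRNA (lentivirus whose shRNA targets IRE1, a protein made from the gene ERN1), XBP1 shRNA (lentivirus whose shRNA targets XBP1), NT shRNA (lentivirus with a non-targeting shRNA) and uninfected cells, with 1 culture per line in each group. Per the labels, lentivirus was left on the cells for 16 h with 8 µg/mL polybrene, and all cultures were harvested at 96 h. The NT shRNA and uninfected arrays entered the fit to estimate the spread and to place the values. Both cell lines served as the replicates (n = 2 per group). The fit took out the level of each line, so a p-value rests on how treatment differences varied between the lines, pooled over all groups. It does not measure the spread between repeat cultures of 1 line. Which shRNA sequences were used, and how many per target, is not given in the sources used here.

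IRE1 is a sensor in the membrane of the endoplasmic reticulum (ER) whose RNase domain cuts an intron out of the XBP1 mRNA when unfolded protein builds up. The spliced mRNA encodes a transcription factor that drives genes of protein translocation, folding and transport, and plasma cells depend on this arm of the unfolded protein response (UPR) to make antibody. The same RNase can also cut other mRNAs at the ER, which is known as regulated IRE1-dependent decay. IRE1 acts above XBP1 and has outputs that do not pass through it, so the comparison asks where silencing of the sensor and silencing of the transcription factor differ.

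All values below are log2 values that were centred for each probe set on its median over the 8 arrays, so a value gives the distance from that median and no expression level. For this reason the labelled cell type could not be checked from marker levels. A difference is the IRE1 shRNA value minus the XBP1 shRNA value, and 1 on this scale is a 2-fold difference if the log base is 2. The medians of 24 probe sets for poly-A control transcripts, which are added to the RNA during labelling, were -0.03 (RPMI-8226) and -0.10 (JJN3) on the IRE1 shRNA arrays, and 0.43 and 0.19 on the XBP1 shRNA arrays. On the NT shRNA arrays they were 0.25 and -0.05, and on the uninfected arrays -0.04 and -0.17. The XBP1 shRNA array therefore held the highest poly-A control median of its line in both lines. Over 18 hybridisation control probe sets the medians were -0.15 and 0.42 on the IRE1 shRNA arrays and -0.03 and 0.02 on the XBP1 shRNA arrays. For centred values the 3' minus 5' difference of a transcript compares RNA integrity between arrays and does not show whether RNA was intact. That of GAPDH lay between -0.06 and 0.06 on the 4 shRNA arrays. That of actin was -0.56 and 0.42 on the IRE1 shRNA arrays and -0.52 and 0.33 on the XBP1 shRNA arrays, so it followed the line. What part these differences have in the results was not tested.

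The targeted genes were examined first. For ERN1, the array labelled IRE1 shRNA was not the lowest of its line at the probe set used in the fit. For ERN1 the IRE1 shRNA label went with readings of 2.11 (RPMI-8226) and -1.24 (JJN3), and the XBP1 shRNA label with 0.29 and -1.57. The NT shRNA arrays read 1.73 and -0.35, and the uninfected arrays 2.75 and -0.29. In both lines ERN1 was lower on the array labelled XBP1 shRNA than on the array labelled IRE1 shRNA, and in RPMI-8226 the array labelled IRE1 shRNA lay above the NT shRNA array. The difference was 1.82 in RPMI-8226 and 0.33 in JJN3, and in the fit 1.08 ± 0.33 (SE, 95% confidence interval 0.33 to 1.82, limma adjusted p = 0.124). A second ERN1 probe set read 0.87 and -1.26 on the arrays labelled IRE1 shRNA against -0.72 and -1.48 on those labelled XBP1 shRNA. The third lay closer to its median, at 0.03 and -0.03 against 0.07 and -0.23.

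XBP1 read -0.60 (RPMI-8226) and -1.47 (JJN3) under the IRE1 shRNA label, -0.58 and -0.02 under the XBP1 shRNA label, 0.02 and 1.11 on the NT shRNA arrays, and 0.19 and 1.02 on the uninfected arrays. Both shRNA arrays of a line thus lay below its NT shRNA array for XBP1. The array labelled IRE1 shRNA was the lower one by 1.44 in JJN3, where it stood at 36.7% of the array labelled XBP1 shRNA, and the arrays were 0.03 apart in RPMI-8226 (98.3%). The fitted difference was -0.73 ± 0.38 (95% confidence interval -1.60 to 0.13, limma adjusted p = 0.414). XBP1 was at -1.58 (adjusted p = 0.0394) without the RPMI-8226 array labelled IRE1 shRNA and at 0.11 without the JJN3 one. The other XBP1 probe set read 0.33 and -0.13 against 0.13 and -0.20, so it was lower under the XBP1 shRNA label in both lines. The probe sets do not tell spliced from unspliced XBP1 mRNA. On the fitted XBP1 probe set the XBP1 shRNA array was below NT shRNA in both lines but not below the IRE1 shRNA array, and for neither target did the difference between the labels pass the threshold. Because ERN1 was not lowest on the arrays that carry the IRE1 label, every direction given below is that of the labels, and the arrays are called IRE1-labelled and XBP1-labelled. Whether any labels were exchanged was not tested.

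**Figure D1:**
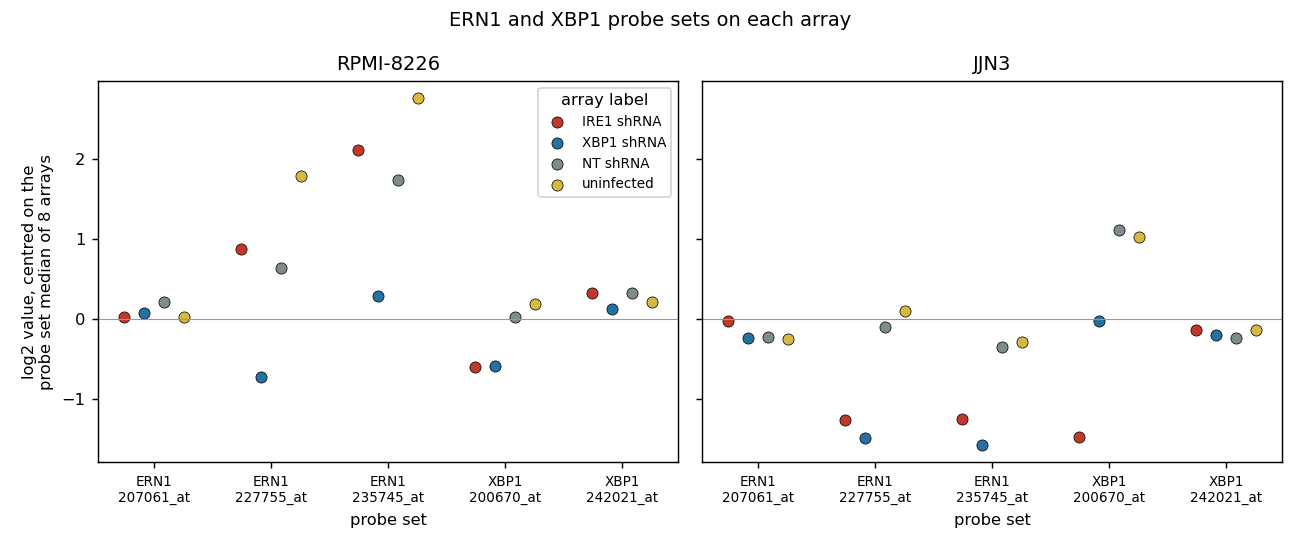
Centred log2 values of the 3 ERN1 and 2 XBP1 probe sets on each array, RPMI-8226 on the left and JJN3 on the right, 1 point per array. At the first and second ERN1 probe sets described above the array labelled XBP1 shRNA is the lowest of its line, and at the fitted XBP1 probe set the array labelled IRE1 shRNA is the lowest in JJN3 (-1.47) and level with the XBP1-labelled one in RPMI-8226.

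Over all genes, 657 of 19775 differed between the IRE1-labelled and the XBP1-labelled arrays, 3.32% of those tested (limma with the line as a block, Benjamini-Hochberg adjusted p under 0.05). Of these, 317 were higher (1.60%) and 340 lower (1.72%) on the IRE1-labelled arrays, and 3141 genes (15.9%) had an unadjusted p under 0.05. The median size of the 657 differences was 1, the smallest was 0.66, and 331 reached 1. Over all genes the median difference was 0.00456 and the interquartile range ran from -0.16 to 0.16. The comparisons with NT shRNA share the NT shRNA arrays and gave 12 genes (0.0607%) for IRE1-labelled and 436 (2.20%) for XBP1-labelled arrays. The count for IRE1-labelled against XBP1-labelled was 122 without the RPMI-8226 IRE1-labelled array, 10 without the JJN3 IRE1-labelled array, 334 without the JJN3 XBP1-labelled array and 371 without either NT shRNA array. Without the line block no gene passed (limma, 0 genes, with 411 at an unadjusted p under 0.05).

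Counted without a test, 100 genes (0.506%) were at least 2-fold higher and 103 (0.521%) at least 2-fold lower on the IRE1-labelled array in both lines, while 2 (0.0101%) were 2-fold apart in opposite directions. Within a line, 532 genes were at least 2-fold apart in RPMI-8226 and 813 in JJN3. Of the 186 that were 2-fold lower in RPMI-8226, 174 were also lower in JJN3 (93.5%), with a median there of -1.05. Of the 346 that were 2-fold higher in RPMI-8226, 310 were also higher in JJN3 (89.6%), with a median of 0.73. In the other direction, 404 of the 470 genes 2-fold lower in JJN3 (86.0%) and 280 of the 343 genes 2-fold higher there (81.6%) had the same sign in RPMI-8226. Of all genes, 29.4% were lower and 29.8% higher on the IRE1-labelled array in both lines, whatever the size of the difference. Across genes, which are not independent replicates, the differences of both lines had a Pearson r of 0.45 and a Spearman rho of 0.34. These lines share no array, and the same correlation for NT shRNA minus uninfected was 0.19. The probe set of each gene was picked by its SD over all arrays, including those compared here. That choice favours probe sets that differ between the labels. With the mean of probe sets, fewer genes were 2-fold apart the same way in both lines, as given below. How far the choice raises the shares and correlations was not tested.

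**Figure D2:**
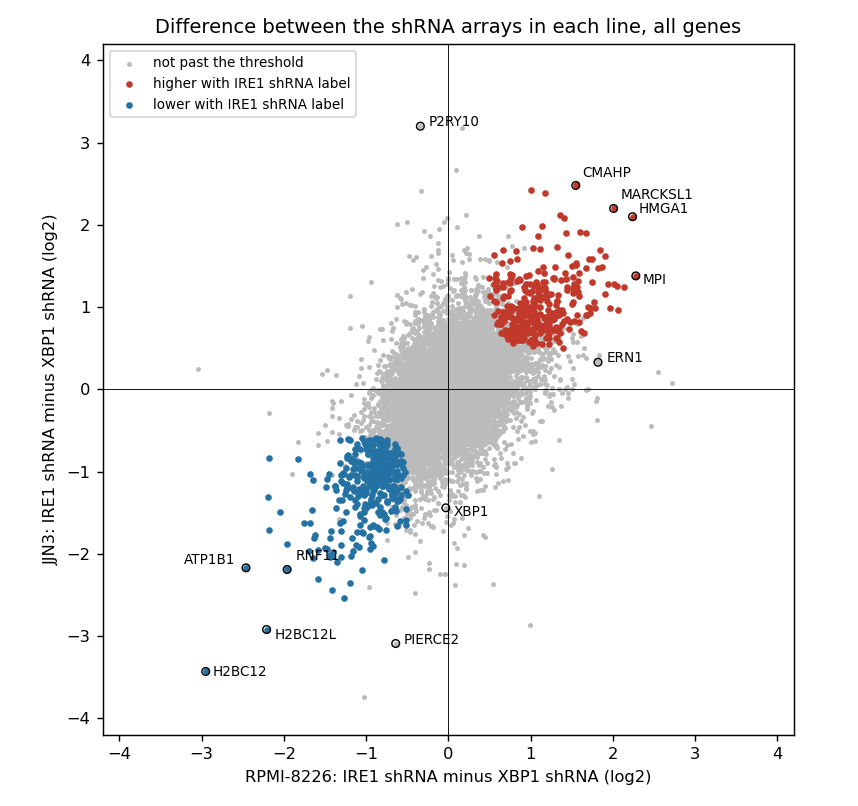
Difference between the IRE1-labelled and the XBP1-labelled array of each gene, RPMI-8226 on the horizontal and JJN3 on the vertical axis (log2), with 1 point per gene and the 317 higher and 340 lower genes coloured. The coloured genes lie at the lower left and upper right, H2BC12 is farthest out at the lower left, and P2RY10 lies at -0.34 in RPMI-8226 and 3.20 in JJN3.

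Replication-dependent histone genes were, of the 35 lists, the one with the most members past the threshold. They encode the core and linker proteins of chromatin and are known to be transcribed mainly in S phase. Their mRNAs normally end in a stem-loop instead of a poly-A tail. How far the array values reflect histone mRNAs without a poly-A tail was not tested. Of 40 listed genes 27 had a singly named probe set. Of these 9 were lower on the IRE1-labelled arrays and 0 were higher, beside 1.72% and 1.60% of all genes. The list's median difference was -0.51 (-0.58 in RPMI-8226, -0.62 in JJN3), against 0.00456 over all genes, and 22 of the 27 were negative in both lines, beside 29.4% of all genes. The genes that passed were the H2B genes H2BC5, H2BC6, H2BC9, H2BC11, H2BC12 and H2BC21, the H2A genes H2AC8 and H2AC17, and the linker histone gene H1-2.

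H2BC12 had the largest difference of all genes past the threshold. It read -2.42 (RPMI-8226) and -2.09 (JJN3) on the IRE1-labelled arrays, against 0.53 and 1.34 on the XBP1-labelled arrays, with -0.47 and 0.47 on the NT shRNA arrays and -0.52 and 0.62 in uninfected cells. Both IRE1-labelled arrays lay below all 6 others and both XBP1-labelled arrays were the highest of their line. H2BC12 was 9.11-fold lower on the IRE1-labelled arrays, a difference of -3.19 ± 0.20 (95% confidence interval -3.64 to -2.74, limma adjusted p = 0.0012). Against NT shRNA, it was at -2.25 on the IRE1-labelled arrays (adjusted p = 0.0243) and at 0.93 on the XBP1-labelled arrays (0.0508). The call held without each of the 8 arrays in turn, with differences from -3.50 to -2.87.

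H2BC21 read -1.71 and 0.53 on the IRE1-labelled arrays of RPMI-8226 and JJN3, -0.30 and 2.57 on the XBP1-labelled arrays, -1.27 and 0.30 on the NT shRNA arrays, and -1.62 and 0.38 in uninfected cells. Here the XBP1-labelled arrays stood out upward, and the IRE1-labelled arrays were close to the NT shRNA arrays. The difference was -1.72 ± 0.26 (limma adjusted p = 0.0148). Against NT shRNA, H2BC21 was at -0.10 on the IRE1-labelled and at 1.62 on the XBP1-labelled arrays (adjusted p = 0.023). H2AC8 had the same arrangement, at 0.06 and 1.56 against NT shRNA, and so had H2AC17, at 0.00 and 1.43. H2BC12 was thus the histone gene past the threshold with the largest distance below NT shRNA on the IRE1-labelled arrays.

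H2BC9 differed by -1.72, H2BC6 by -1.62, H1-2 by -1.61, H2AC8 by -1.51, H2AC17 by -1.42, H2BC11 by -1.18 and H2BC5 by -0.86, the last a call that was lost without each of the 8 arrays in turn. Of the genes that did not pass, H2BC4 stood at -1.68 (adjusted p = 0.0525), H2BC17 at -0.82 (0.0927) and H2AC6 at -0.71 (0.0691). H1-5 and H4C8 were positive in both lines, at 0.31 and 0.39, and did not pass either. Several histone genes are near copies of each other and the probe sets of H2BC5, H2BC6 and H2BC9 can bind more than 1 of them, so signal cannot be assigned to single genes with certainty. The count of lower histone genes was 1 without the JJN3 IRE1-labelled array, 4 without the RPMI-8226 IRE1-labelled array, 4 without the JJN3 XBP1-labelled array and 8 without each of the other 5 arrays. The poly-A control medians moved with the same labels (-0.03 and -0.10 on the IRE1-labelled arrays, 0.43 and 0.19 on the XBP1-labelled arrays), and their part in the histone differences was not tested. Of 43 measured DNA replication and S phase genes 0 passed (limma), beside 3.32% of all genes, with a median of 0.0683. In a list of this length such a count gives no result about these genes. A fit of the 4 shRNA arrays alone called 3 higher, among them CDT1 (limma adjusted p = 0.0122) and RRM2 (0.0441), beside 11 histone genes lower. SLBP, which binds the histone stem-loop, was at 0.00.

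**Figure D3:**
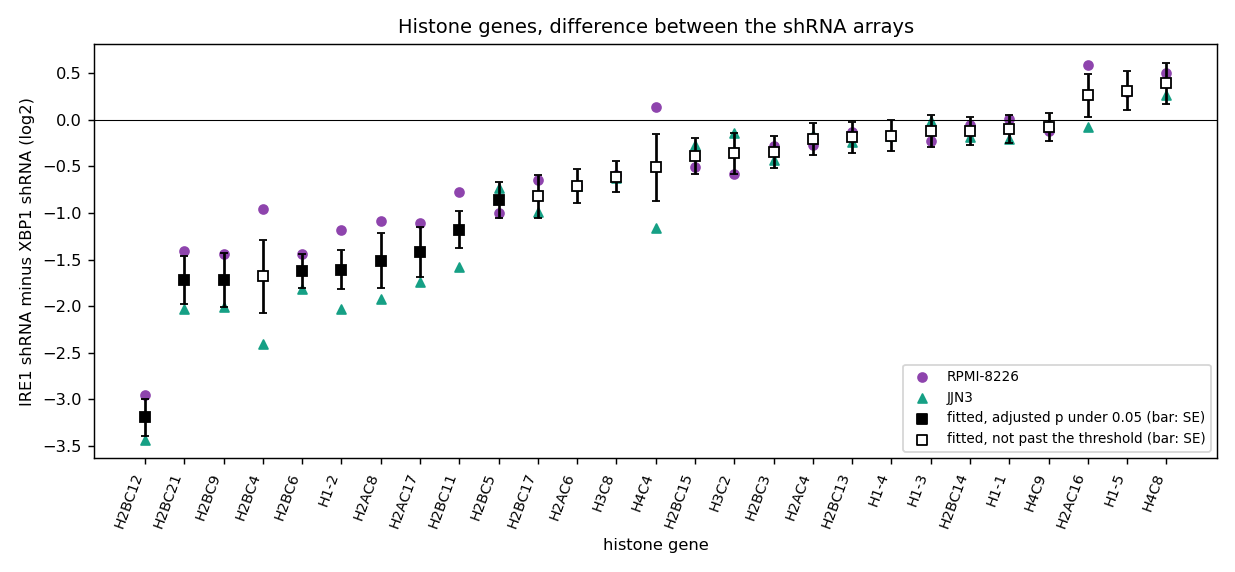
Difference between the IRE1-labelled and the XBP1-labelled arrays for the 27 measured histone genes (log2), ordered by the fitted difference. Coloured points are the lines, squares the fit with its SE, filled where the adjusted p was under 0.05; the 9 filled squares all lie below 0, with H2BC12 lowest at -3.19.

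The upstream sequence of histone genes is compact, and the octamer ATTTGCAT, the motif bound by the POU factors OCT1 and OCT2, is a known element of H2B promoters. In the 250 bases before the start of transcription (RefSeq, GRCh38.p14, both strands searched) the octamer was present at 14 of the 27 measured histone genes (51.9%), against 573 of 35116 promoters in the table (1.63%). It was found at 7 of the 9 genes that passed (77.8%) and at 7 of the 18 that did not (38.9%), and among the H2B genes at 5 of 6 and at 4 of 6. CCAAT stood at 25 of 27 (32.0% of all promoters) and TATAAA at 19 of 27 (10.7%). These motifs can share end bases (CCAAT ends and the octamer begins with AT), though none does in the sequences shown, and a match is a description of the sequence, not a site of binding. Shown are the 140 bases before the start for the 3 H2B genes with the largest differences whose promoters hold the octamer, H2BC12 (chr6:27146859-27146998, minus strand), H2BC21 (chr1:149886683-149886822, minus strand) and H2BC9 (chr6:26251474-26251613, plus strand). Beside them stand 2 H2B genes that hold it and did not pass, H2BC14 (-0.12, chr6:27814882-27815021, plus strand) and H2BC3 (-0.35, chr6:26043714-26043853, minus strand). All are written 5′ to 3′ toward the gene, with capitals marking the octamer, CCAAT and TATAAA on either strand.
H2BC12: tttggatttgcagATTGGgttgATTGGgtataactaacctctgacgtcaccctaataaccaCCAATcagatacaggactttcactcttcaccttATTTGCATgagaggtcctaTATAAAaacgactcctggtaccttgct
H2BC21: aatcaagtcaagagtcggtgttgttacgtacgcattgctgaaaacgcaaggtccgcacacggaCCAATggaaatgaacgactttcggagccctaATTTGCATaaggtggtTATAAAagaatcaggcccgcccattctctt
H2BC9: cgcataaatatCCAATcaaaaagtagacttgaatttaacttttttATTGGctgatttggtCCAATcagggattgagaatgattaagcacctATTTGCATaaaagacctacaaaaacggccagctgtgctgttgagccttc
H2BC14: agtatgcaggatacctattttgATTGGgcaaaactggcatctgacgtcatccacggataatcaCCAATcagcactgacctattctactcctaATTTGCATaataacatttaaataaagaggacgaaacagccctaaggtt
H2BC3: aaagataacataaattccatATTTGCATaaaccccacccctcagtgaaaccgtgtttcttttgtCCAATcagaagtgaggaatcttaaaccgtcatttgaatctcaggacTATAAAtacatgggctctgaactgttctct

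In H2BC12, H2BC21, H2BC9 and H2BC14 the octamer lies near the gene end of the sequence, downstream of the CCAAT motifs. In H2BC3 it lies upstream of the CCAAT motif. The octamer was present in promoters of genes on both sides of the threshold.

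Among the 12 genes with the largest higher values, HMGA1 and MARCKSL1 stood first. HMGA1, a protein that bends AT-rich DNA and shapes chromatin, read 0.91 (RPMI-8226) and 0.03 (JJN3) on the IRE1-labelled arrays, -1.33 and -2.07 on the XBP1-labelled arrays, and 0.99 and -0.13 on the NT shRNA arrays. The XBP1-labelled arrays were the lowest of their line and the IRE1-labelled ones were level with NT shRNA. The difference was 2.17 ± 0.16, or 4.50-fold (95% confidence interval 1.81 to 2.53, limma adjusted p = 0.00155). The other HMGA1 probe set differed by 0.21. MARCKSL1, a membrane-bound regulator of actin, read -0.03 and 1.10 on the IRE1-labelled arrays against -2.03 and -1.10 on the XBP1-labelled arrays, and 0.03 and 0.96 on the NT shRNA arrays. Its difference was 2.10 ± 0.16 (adjusted p = 0.00155), and it too was level with NT shRNA on the IRE1-labelled arrays (0.04) and below it on the XBP1-labelled arrays (-2.06).

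MPI, the phosphomannose isomerase that feeds mannose into glycosylation, read -0.08 and 0.62 on the IRE1-labelled arrays, against -2.36 and -0.76 on the XBP1-labelled arrays. It differed by 1.83 ± 0.21 (limma adjusted p = 0.00653), and its other probe set by 0.49. CMAHP, the human pseudogene of a sialic acid hydroxylase, read 0.32 and 2.15 on the IRE1-labelled arrays and -1.22 and -0.32 on the XBP1-labelled arrays. It was 2.01 higher (adjusted p = 0.00484), and here the IRE1-labelled arrays were above NT shRNA (1.5, adjusted p = 0.0624) and the XBP1-labelled arrays below (-0.51). For CMAHP the other 3 probe sets gave 0.81, 0.08 and -0.05.

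The remaining higher genes of the 12 included the receptors TNFRSF1B, a receptor for tumour necrosis factor (1.79), and PTGER4, a receptor for prostaglandin E2 (1.78). USP14, a deubiquitinase of the proteasome, differed by 1.77, the kinesin motor KIF1C by 1.76, and R3HDM1 by 1.76. The antisense RNA TMEM132D-AS1 differed by 1.75, the transcription factor NFIA by 1.74, and CTSH, a lysosomal cysteine protease, by 1.71. Other probe sets went the opposite way for KIF1C (-0.31 at 1 of 2), R3HDM1 (-0.27 at its only other) and NFIA (-0.15 at 1 of 6). The adjusted p of these 8 genes lay between 0.00353 for R3HDM1 and 0.0227 for CTSH.

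Among the 12 genes with the largest lower values, the H2B-like gene H2BC12L came after H2BC12, at -2.57 ± 0.24 (limma adjusted p = 0.00374), on a probe set that can bind other H2B genes. ATP1B1, the beta subunit of the sodium-potassium pump, read 0.13 and -0.81 on the IRE1-labelled arrays, 2.59 and 1.36 on the XBP1-labelled arrays, and 0.98 and -0.21 on the NT shRNA arrays. The XBP1-labelled array was the highest of its line in both lines. ATP1B1 was 4.98-fold lower on the IRE1-labelled arrays (-2.32 ± 0.17, adjusted p = 0.00155), and its other probe set gave -1.37. RNF11, a RING-type ubiquitin ligase that works with the NF-kB inhibitor A20, read -1.20 and -1.07 against 0.76 and 1.12. It differed by -2.08 ± 0.16 (adjusted p = 0.00155) and lay below NT shRNA on the IRE1-labelled arrays (-1.25, 0.0459) and above it on the XBP1-labelled arrays (0.82, 0.0405).

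STAU1, which binds double-stranded RNA in mRNA transport and decay, read -1.20 and -1.29 on the IRE1-labelled arrays against 0.22 and 1.15 on the XBP1-labelled arrays. Its 4 probe sets gave -1.65 to -1.93, and the NT shRNA array of RPMI-8226, at -1.49, was as low as the IRE1-labelled one. MXD1, a partner of MAX that opposes MYC, differed by -1.90, but its other 2 probe sets gave -0.28 and -0.03. RPRD1A, a regulator of RNA polymerase II, differed by -1.92 at the fitted probe set, while 3 of its 5 other probe sets went the opposite way (0.39 to 0.46). PCTP, which carries phosphatidylcholine between membranes, was at -1.95, KIAA1191 at -1.94 and TPRG1L at -1.84. MACROD1, which removes ADP-ribose from proteins, differed by -1.83 and CAB39L, a scaffold of the LKB1 kinase complex, by -1.77. Against NT shRNA, MACROD1 was at -1.95 on the IRE1-labelled arrays (limma adjusted p = 0.0372) and at -0.11 on the XBP1-labelled arrays (0.876). The other MACROD1 probe set differed by only -0.03 between the shRNAs.

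The choice of probe set bears on such a list, because each gene was represented by its most variable probe set. Of the 506 genes past the threshold with several probe sets, 121 had another probe set that passed in the same direction in a fit of all probe sets, and in 285 all probe sets had the same sign. Over the 1240 other probe sets of these genes, 895 had the sign of the fitted one, with a median difference of 0.19 in that direction. In the fit of every probe set 1084 of 41097 passed (2.64%).

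**Figure D4:**
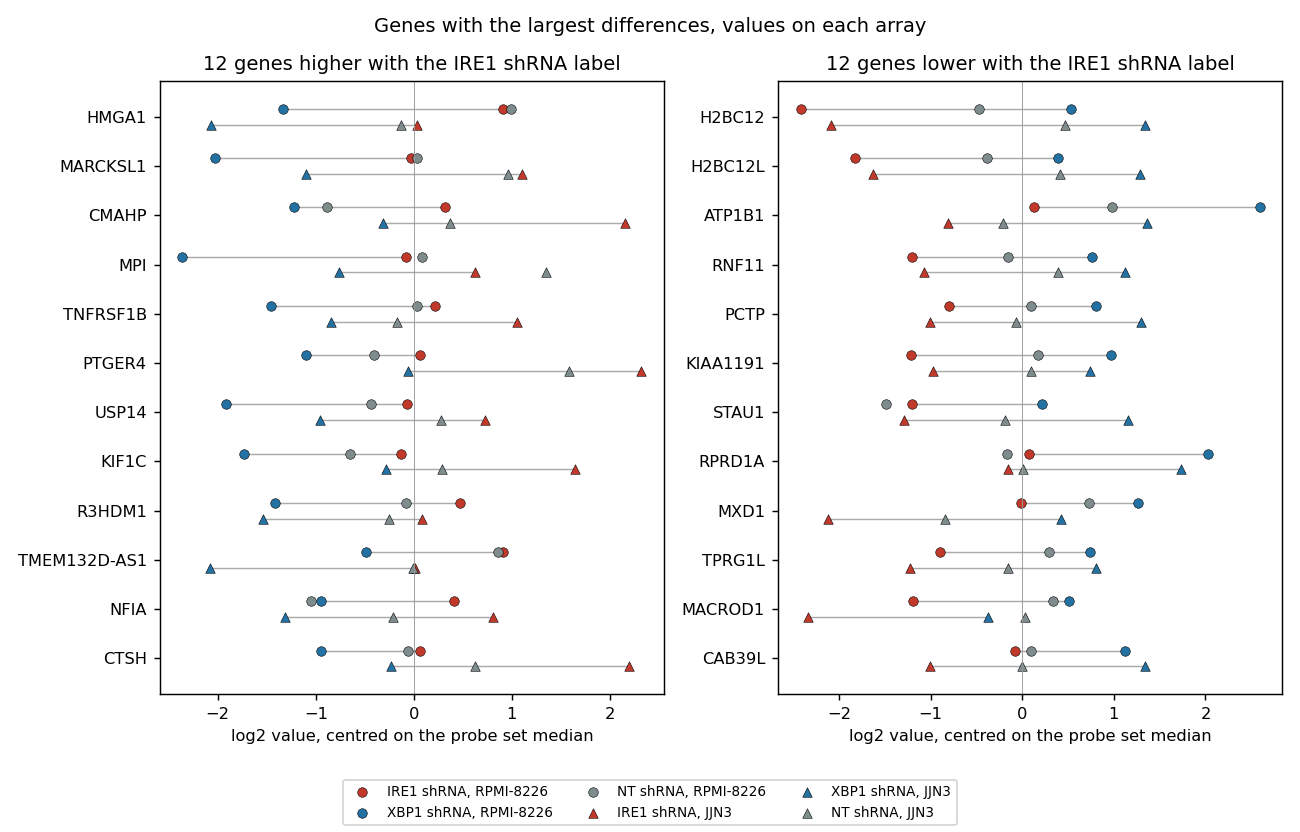
Centred log2 values of the 12 genes with the largest higher (left) and lower (right) differences, circles for RPMI-8226 and triangles for JJN3, with a line joining the IRE1-labelled and the XBP1-labelled array of each cell line. HMGA1 and MARCKSL1 have the NT shRNA point beside the IRE1-labelled point, and H2BC12 and RNF11 have it between the shRNA points.

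Genes of plasma cell identity were higher on the IRE1-labelled arrays where they passed: 5 of 24 measured genes were higher and 0 lower (1.60% and 1.72% of all genes). These were IRF4 and PRDM1, transcription factors that set the plasma cell program, POU2AF1, a coactivator of the octamer factors, ELL2, an elongation factor known to act in antibody mRNA processing, and KLF2, a transcription factor of lymphocyte homing. IRF4 read -0.21 (RPMI-8226) and 0.98 (JJN3) on the IRE1-labelled arrays, -1.74 and 0.14 on the XBP1-labelled arrays, and -0.78 and 1.30 on the NT shRNA arrays. The XBP1-labelled array was the lowest of its line. IRF4 was 1.18 ± 0.21 higher (2.27-fold, limma adjusted p = 0.0228), and against NT shRNA it was at 0.12 on the IRE1-labelled and at -1.06 on the XBP1-labelled arrays. PRDM1 read -0.40 and 0.90 on the IRE1-labelled arrays against -1.74 and 0.31 on the XBP1-labelled arrays and was 0.96 higher (0.0341). KLF2 was 1.15 higher, ELL2 0.95 and POU2AF1 0.82. Against NT shRNA, PRDM1 was at -0.27 on the IRE1-labelled and at -1.23 on the XBP1-labelled arrays, and POU2AF1 at 0.17 and -0.65, as for IRF4. KLF2 (0.84 and -0.31) and ELL2 (0.86 and -0.09) instead lay farther from NT shRNA on the IRE1-labelled arrays, above it. Over both lines the other probe sets of these 5 genes had the same sign and smaller differences. They gave 0.44 and 0.07 for IRF4, 0.42 and 0.03 for PRDM1, and 0.54 for POU2AF1. For KLF2 the other gave 0.20, and for ELL2 the others gave 0.14 to 0.40.

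The list's median difference was 0.18 (0.04 in RPMI-8226, 0.34 in JJN3), against 0.00456 over all genes. SDC1, the plasma cell surface proteoglycan CD138, was at -0.69 and CD38 at 0.19, and neither passed. The count of 5 was 0 without either IRE1-labelled array, 3 without either XBP1-labelled array, 2 without any single NT shRNA or uninfected array, and 1 after a second quantile normalization or with the mean of a gene's probe sets. Of 10 defining markers of plasma cells 3 were higher, beside 1.60% of all genes, with a list median of 0.24. These 3, IRF4, PRDM1 and POU2AF1, are among the 5 already counted and add no further call. The targeted gene XBP1 is also a member of this list, at -0.73. No immunoglobulin gene passed (limma, 0 of 11, median 0.16), beside 3.32% of all genes, a count that gives no result about so short a list. IGKC was at 0.56 (limma adjusted p = 0.097), IGLC1 at -0.33 and IGHA1 at 0.25. IGLC1 read 4.69 to 4.72 on the RPMI-8226 arrays and -5.73 to -4.69 on the JJN3 arrays. Its difference was -0.03 in RPMI-8226 and -0.62 in JJN3. Whether the JJN3 signal is above background cannot be seen in centred values. Other probe sets had the opposite sign for IGKC (3 of 7, -0.32 to -0.03), IGLC1 (2 of 8, 0.41 and 0.16) and IGHA1 (its only other, -0.05). Of 29 B cell genes TCF3, the E2A transcription factor, was higher (1.24, adjusted p = 0.0173), with 3 of its 13 other probe sets at -0.10 to -0.16, and the list median was 0.00492.

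The MHC class II list, whose proteins load and show peptides to helper T cells, had a median difference of 0.60 (0.33 in RPMI-8226, 0.75 in JJN3), the highest of the 35 lists, and 11 of its 16 genes were positive in both lines (29.8% of all genes were). Of the 16, 2 were higher and 1 lower, beside 1.60% and 1.72% of all genes. HLA-DRA read -0.26 and 1.47 on the IRE1-labelled arrays, -1.35 and 0.26 on the XBP1-labelled arrays and -0.73 and 0.75 on the NT shRNA arrays. The NT shRNA arrays fell between both shRNAs, at 0.59 below the IRE1-labelled arrays and 0.55 above the XBP1-labelled arrays. In uninfected cells HLA-DRA read -0.69 and 1.24, so in JJN3 the uninfected array was nearer than NT shRNA to the IRE1-labelled one. HLA-DRA was 1.15 ± 0.16 higher (limma adjusted p = 0.0122) and its second probe set was 1.07 higher. HLA-DPB1 was 1.09 higher (0.0404), and RFXAP, a subunit of the RFX complex that activates class II promoters, was 0.96 lower, at -0.96 (0.0368).

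HLA-DMB, which helps peptide loading, was at 1.26 (adjusted p = 0.051), HLA-DMA at 0.89, and CD74, the invariant chain, at 0.67 (0.0981). HLA-DQB1 was at -0.33 in RPMI-8226 and 2.41 in JJN3, and HLA-DQA1 at -0.19 and 1.40, and the difference between lines passed the interaction test for neither. The 2 higher genes became 0 without either IRE1-labelled array, 1 without the JJN3 XBP1-labelled array, 4 without the RPMI-8226 XBP1-labelled array 1 without any single NT shRNA or uninfected array, and 0 after a second quantile normalization. RFXAP lost its call without 7 of the 8 arrays in turn. Of 16 MHC class I presentation genes the peptide-trimming enzyme ERAP2 was higher (0.85, adjusted p = 0.046) and its relative ERAP1 lower (-1.02, 0.0452), with a list median of 0.30. At ERAP2 2 of 4 other probe sets gave -0.34 and -0.15, and at ERAP1 1 of 4 gave 0.21.

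Most known outputs of IRE1 and XBP1 are genes of the ER. The counts that follow stand beside 1.60% of all genes called higher and 1.72% called lower. Of 22 UPR sensors and transducers, ATF6 and its relative ATF6B, membrane-bound transcription factors of another UPR arm, were higher, and 0 were lower. ATF6B read 0.05 and 0.36 on the IRE1-labelled arrays against -1.08 and -0.86 on the XBP1-labelled arrays, with NT shRNA at -0.27 and -0.05. The XBP1-labelled arrays were the low ones in both lines. ATF6B was 1.18 ± 0.15 higher (limma adjusted p = 0.00827) and ATF6 was 0.80 higher (0.0282), a call that ATF6 lost without each of the 8 arrays in turn. ATF6B's other probe sets gave 0.43 and 0.29, and those of ATF6 gave 0.48 to 0.86. The list's median was -0.13, but 0.26 in RPMI-8226 and -0.40 in JJN3. HSPA5, the chaperone BiP, was at -0.18, EIF2AK3, the sensor PERK, at -0.23, and MAPK8, the kinase JNK1, at -0.69 (adjusted p = 0.0819).

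Among 33 XBP1-dependent ER and translocon genes, DNAJC3, a co-chaperone that also restrains PERK, was lower and none was higher. It read -1.09 and -0.29 on the IRE1-labelled arrays, -0.20 and 1.37 on the XBP1-labelled arrays, and -0.14 and 1.11 on the NT shRNA arrays. The XBP1-labelled arrays were close to NT shRNA and the IRE1-labelled arrays below it. DNAJC3 differed by -1.28 ± 0.21 (limma adjusted p = 0.0192), and its other 3 probe sets by -0.37 to -1.17. SSR1 and TRAM1, parts of the translocation channel, were both at -0.65 (adjusted p = 0.0851) and HYOU1, an ER chaperone, at -0.39. The list's median was -0.0811. Against NT shRNA, whose arrays both values share, the list's median was -0.40 for the IRE1-labelled and -0.19 for the XBP1-labelled arrays. In RPMI-8226 these medians were close, at -0.18 and -0.20, and in JJN3 they were -0.51 and -0.22. The PERK-ATF4 stress genes, given below, lay farther below NT shRNA, with medians of -1 and -0.74.

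No gene passed among 22 genes of ER-associated degradation (limma, 0 of 22, median -0.0118) or 22 ER chaperones and disulfide enzymes (0 of 22, median 0.0181). With 3.32% of all genes called, such counts, like the single call among XBP1-dependent genes, give no result about lists of these lengths. In the degradation list DERL2 was at -0.51 (another probe set at 0.44), ERLEC1 at -0.49 and UBE2G2 at 0.49. Among the folding enzymes ERO1B was at -1.06 (adjusted p = 0.0666, another probe set at 0.24), the protein disulfide isomerase P4HB at 0.89 (0.0729) and ERP44 at 0.60. MPI, given above, was the only gene past the threshold of 34 N-glycosylation genes (median 0.0162). Of 38 ER-Golgi transport genes the small GTPase ARF4 was 0.96 higher (0.0204). The cargo receptor TMED4 was 1.18 higher at the fitted probe set (0.0108) but at -0.65 and -1.19 at 2 of its 4 other probe sets. The transport list's median was -0.13.

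Of reported targets of the IRE1 RNase, a list gathered in other cells and species, 0 of 12 passed (limma), with a median of -0.0626. With 3.32% of all genes called, a list of this length gives no result about these targets. TAPBP was at -0.57 (adjusted p = 0.122, another probe set at 0.16), TGOLN2 at -0.37 (another at 0.42) and ITGB2 at -0.23. BLOC1S1, the target named most widely, was at -0.05 ± 0.18, and SPARC at -0.03. Of 32 PERK-ATF4 stress genes EIF4EBP1, which blocks cap-dependent translation, was higher (1.40, 0.046) and no other passed. EIF4EBP1 read -0.15 and -1.04 on the IRE1-labelled arrays against -1.69 and -2.29 on the XBP1-labelled arrays, with NT shRNA at 0.30 and 0.54. Both shRNAs were thus below NT shRNA in both lines, the XBP1-labelled arrays by more (-2.41, adjusted p = 0.0113, against -1.02, 0.258). The median of this list was 0.26 in RPMI-8226 and -0.35 in JJN3. The cystine carrier SLC7A11 was at -0.04 and -2.25, and the asparagine synthetase ASNS at 0.44 and -1.80, with no test past the threshold for either. Of 18 aminoacyl-tRNA synthetases 0 passed (median -0.00612), with EPRS1 and LARS1 at 0.31 and FARSA at 0.21. That count, too, gives no result about a list of this length.

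**Figure D5:**
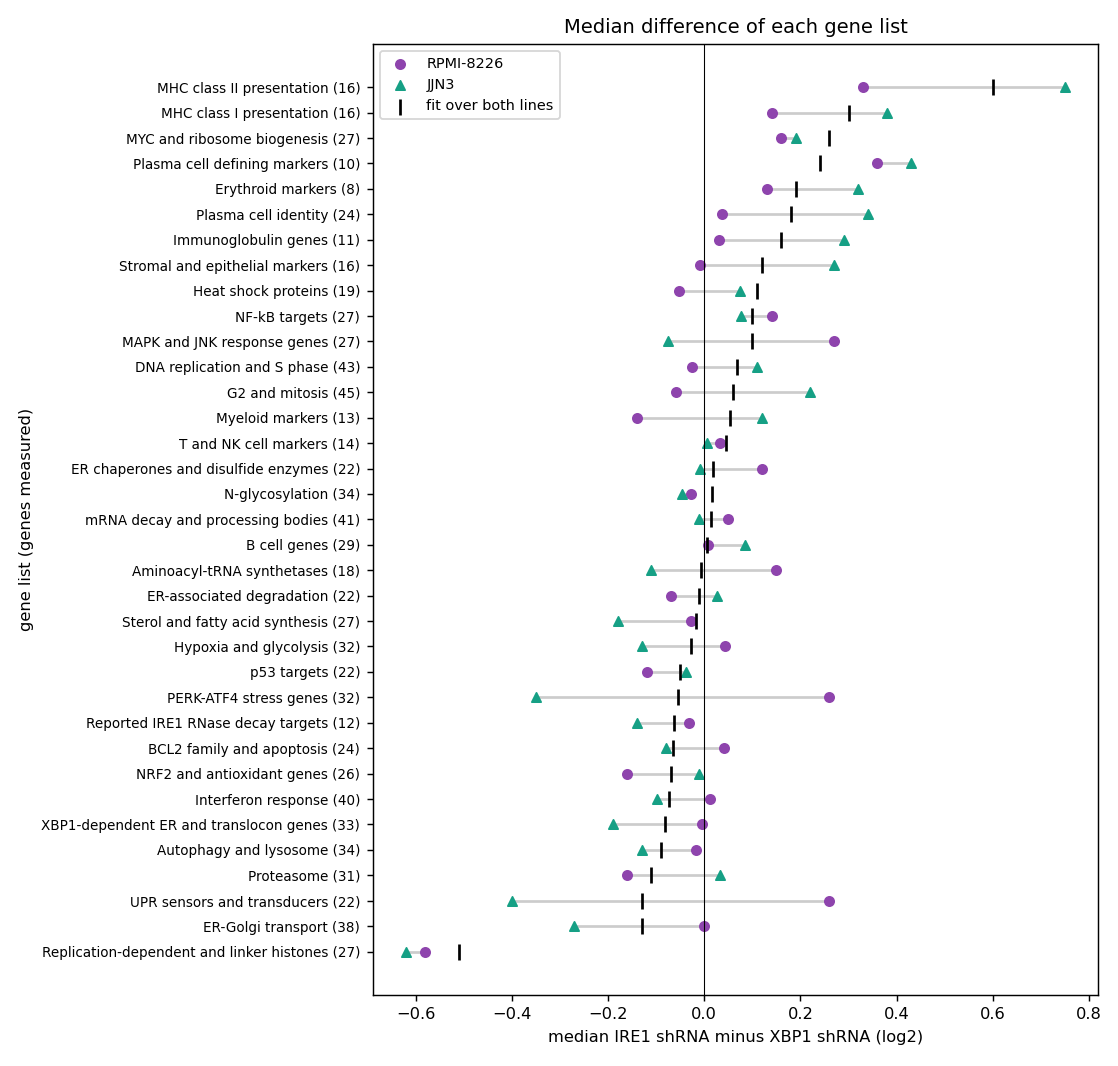
Median difference between the IRE1-labelled and the XBP1-labelled arrays for each of the 35 gene lists (log2), with the number of measured genes in brackets, circles for RPMI-8226, triangles for JJN3 and bars for the fit. Histones are lowest at -0.51 and MHC class II genes highest at 0.60, both with the same sign in both lines, while the UPR and PERK-ATF4 lists have opposite signs in RPMI-8226 and JJN3.

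In 3 lists of signalling genes 1 gene each passed, beside 3.32% of all genes. TNFAIP3, the NF-kB inhibitor A20, was the 1 of 27 NF-kB targets past the threshold. It read 0.26 and 0.55 on the IRE1-labelled arrays and -1.49 and -0.75 on the XBP1-labelled arrays. The NT shRNA arrays lay between, at -0.51 and -0.14, and the uninfected arrays above NT shRNA, at 0.14 and 0.26. TNFAIP3 was 1.52 ± 0.18 higher (2.88-fold, limma adjusted p = 0.00684), while NFKBIA, another feedback inhibitor, was at 0.10 and the list median was 0.10. CXCL10, a chemokine induced by interferon, was 1.66 higher (0.0222) and the only one of 40 interferon response genes past the threshold (median -0.0742), with ISG15 at -0.96 (0.0804). Of 27 MAPK and JNK response genes the phosphatase DUSP10 was 0.86 higher (median 0.10).

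Of 27 MYC and ribosome biogenesis genes MYC itself was 0.82 higher (limma adjusted p = 0.046) and the rest did not pass. With 1.60% of all genes called higher, 1 call in this list, or in the G2 list below, gives no result about the list. The MYC list's median was 0.26, with 18 genes positive in both lines, beside 29.8% of all genes. Among the 18 were PES1 at 0.64 (0.053) and NCL at 0.63 (0.101). Of 45 G2 and mitosis genes the phosphatase CDC25B, which triggers entry into mitosis, was 0.98 higher (0.0192, median 0.0602). In the S phase list CDT1, which licenses replication origins, was at 1.03 (0.118), RRM2 at 0.84 (0.0536) and MCM6 at 0.80 (0.135). MYC lost its call without 6 of the 8 arrays in turn.

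Among 24 BCL2 family and apoptosis genes XIAP, an inhibitor of caspases, and BAD, a death-promoting BCL2 relative, were lower, beside 1.72% of all genes. XIAP read 0.03 and -1.22 on the IRE1-labelled arrays against 1.34 and 0.67 on the XBP1-labelled arrays, and differed by -1.60 ± 0.21 (limma adjusted p = 0.00987). Of its 6 other probe sets 1 gave -0.68 and the remaining 5 gave -0.14 to 0.05. BAD differed by -0.82 (0.0228), with others at -0.67 and 0.02, and the list median was -0.064. MDM2, the ubiquitin ligase of p53, was the 1 of 22 p53 targets past the threshold (-0.82, 0.0222, list median -0.0504), with its 9 other probe sets between -0.65 and 0.35.

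Of 31 proteasome genes PSMD12 (0.98) and PSMA5 (0.91) were higher and PSMB2 (-0.91) lower, beside 1.60% and 1.72% of all genes, and the list median was -0.11. The other probe set of PSMD12 gave -0.54 and that of PSMA5 gave -0.02, while those of PSMB2 gave -0.77, -0.53 and 0.09. Of 34 autophagy and lysosome genes ATG3, the enzyme that couples LC3 to lipid, was 1.18 higher (limma adjusted p = 0.00987), and ATG4A, a protease that primes the LC3 relatives, 0.85 lower, at -0.85 (0.0224). That list's median was -0.0899. HSPA4 was 1.05 higher (0.0397) among 19 heat shock proteins, with other probe sets at 0.09, 0.01 and -0.05. The glucose carrier SLC2A1 was 0.83 higher (0.0361) among 32 hypoxia and glycolysis genes, with its other probe set at -0.15. The malic enzyme ME1 was 0.69 higher (0.0463) among 26 NRF2 and antioxidant genes, with others at 0.38 and -0.06, and its call was lost without each of the 8 arrays in turn. The medians of these 3 lists were 0.11, -0.0279 and -0.0682.

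No gene of 27 for sterol and fatty acid synthesis passed (limma, 0 of 27, median -0.0179), with the fatty acid enzyme ACACA at -1.23 (adjusted p = 0.0584, other probe set 0.21), HMGCS1 at -1.08 (0.121) and LSS at -0.68 (0.137). Nor did any of 41 genes of mRNA decay and processing bodies (0 of 41, median 0.0141), with the exonuclease XRN1 at 1.09 (0.0564, another probe set at -1.24), and UPF2 and ZFP36L2 both at 0.67. Markers of other cell types did not pass: 0 of 14 for T and NK cells, 0 of 13 for myeloid cells, 0 of 16 for stromal and epithelial cells and 0 of 8 for erythroid cells. Their medians were 0.0452, 0.0543, 0.12 and 0.19. Among those named were the adhesion proteins CDH1 at 1.07 (0.0603) and EPCAM at 0.61 (0.0671), and AHSP, of red cell precursors, stood at 0.41. CD3D was at 0.25, CD2 at -0.16, CD3E at -0.13, CD14 at -0.27, LYZ at 0.27, ELANE at 0.16, THY1 at -0.28, EPB42 at 0.30 and HBD at 0.29. As the values are centred, they do not show whether these markers were expressed. The counts of 0 in these lists, from sterol synthesis to erythroid cells, stand beside 3.32% of all genes called. In lists of these lengths such counts give no result about the listed genes.

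Whether the difference between the shRNAs itself differed between the lines was tested with an interaction term, JJN3 minus RPMI-8226. No gene passed (limma, 0 of 19775), and 941 (4.76%) had an unadjusted p under 0.05. The smallest p belonged to P2RY10, a receptor for lysophosphatidylserine. It read 1.55 (RPMI-8226) and -1.29 (JJN3) on the IRE1-labelled arrays, 1.90 and -4.49 on the XBP1-labelled arrays, and 1.56 and -3.17 on the NT shRNA arrays. The RPMI-8226 arrays were close together, and in JJN3 the IRE1-labelled array was the highest and the XBP1-labelled one the lowest. The interaction was 3.54 (adjusted p = 0.0646), from -0.34 in RPMI-8226 and 3.20 in JJN3, and P2RY10 passed when the variance was estimated robustly (limma adjusted p = 0.0486). Its other 2 probe sets differed less between the lines, at -0.23 and 0.70 and at -0.09 and 0.30.

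For GSDME, a pore-forming protein of pyroptotic cell death, the difference was 0.54 in RPMI-8226 and -2.37 in JJN3 (interaction -2.90, adjusted p = 0.341). PIERCE2 stood at -0.64 and -3.09, ASPH, an ER hydroxylase, at -0.50 and 2.03, and ZNF165, a zinc finger protein, at 0.19 and -2.14. Each of these 3 interactions had the adjusted p of GSDME. For the targets the interaction was -1.5 for ERN1 (0.867) and -1.42 for XBP1 (0.998). Its spread rests on 2 residual degrees of freedom taken from other treatments, so a gene that missed the threshold here is not shown to act alike in both lines. Of 8 other ASPH probe sets 1 had a like spread between lines (0.15 in RPMI-8226, 2.43 in JJN3), and over both lines 6 had the sign of the fitted one (0.77), at 0.01 to 1.29, and 2 the opposite sign (-0.11 and -0.45).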

How the data were processed

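RNA of 8 cultures was measured on 8 arrays. RMA made the values, per the submitters' processing notes (its version is not given in the sources used here), and the values the authors deposited were taken as log2 on that ground. The table held 54675 probe sets, with every probe set's median at 0 (tolerance 1e-06) and a range from -5.73 to 5.45, so they were centred before deposit and show no level above background. Precision is limited by how few arrays there are. No 2 arrays were identical (0 of 28 pairs). All columns belonged to samples of the series.

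Probe sets were named from the platform annotation: 41097 had 1 symbol (19775 genes), 1801 several and 11777 were not listed; 41043 matched the RefSeq gene table (GRCh38.p14, used for names) with 54 unmatched and 0 symbols changed. A gene was represented by its probe set of highest SD over the 8 arrays. Differences were fitted in R 4.3.3 with limma 3.58.1 (lmFit, eBayes, two-sided, Benjamini-Hochberg over all genes, threshold 0.05) on all 8 arrays, with treatment and the cell line as a block (3 residual degrees of freedom). Same-numbered arrays come from the same cell line, which is the pairing. The interaction used treatment, line and their product for the shRNA pair. The code was tested on simulated data.

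The genes named are the 12 largest differences past the threshold in each direction with the same sign in both lines, all members of a list past the threshold (or up to 3 of the largest of the same sign in both lines where none passed), the 5 smallest interaction p, and ERN1 and XBP1; SSR1, TRAM1, HLA-DMB and other list members named beside them were chosen after their values were seen. Members and the 35 lists (967 genes, 872 measured, 10 on more than 1 list) were chosen with earlier results of these data known. Lists were described by counts and medians, with no set test. Promoters came from RefSeq (GRCh38.p14), matched by symbol for all 27 measured histone genes. Alternatives were other normalizations, probe set rules, filters, variance priors, arrays in the fit and each array left out, with 1 probe set rule added after seeing the data.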

Additional observations from a re-analysis of the deposited data

How the results depend on the processing

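Of 2148 values of named genes under 20 alternatives, 1731 kept direction and side of the threshold, 368 lost their call, 29 gained one and 20 changed sign. Many named genes did not pass in the main fit and had no call to lose. The 368 of 2148 is therefore not the share of calls lost, which is larger. Of 665 list medians, 65 moved by more than their spread between lines. Without the replicate block, which removes the pairing by line, 0 genes passed (0 higher, 0 lower; limma, 411 at an unadjusted p under 0.05). The count of 657 was 369 after a second quantile normalization (163 higher, 206 lower), 297 with the mean of probe sets (142, 155), 395 with the probe set of highest mean, which in centred values is not the brightest (173, 222) and 1084 with every probe set tested (519, 565). With the probe set of highest SD over the NT shRNA and uninfected arrays, chosen after seeing the data, it was 414 (200, 214). Genes 2-fold higher in both lines numbered 32 and 2-fold lower 40 with the mean of probe sets, and 59 were higher with the probe set of highest mean. Leaving out 1 array gave 10 to 527 genes (5 to 240 higher, 5 to 337 lower): 10 without the JJN3 IRE1-labelled array, 122 without the RPMI-8226 one, 334 without the JJN3 XBP1-labelled array, 371 without either NT shRNA array, which takes its partner out of the spread as well, and 190 higher without the RPMI-8226 XBP1-labelled array. ERN1 ran from 0.56 to 1.59 and XBP1 from -1.58 to 0.11 when 1 array was left out. With the probe set of highest mean the sign turned for XBP1 (0.13), KIF1C (-0.31), R3HDM1 (-0.27), DERL2 (0.44), TMED4 (-0.65), PSMB2 (0.0915), PSMD12 (-0.54), BAD (0.0166), XIAP (0.0514) and SLC2A1 (-0.15). It turned for TMED4 with the mean of probe sets (-0.0991), for IGKC (-0.32) and SLC2A1 (-0.15) where probe sets not ending in _x_at or _s_at were preferred, and for PSMD12 (-0.54) with the added rule. With 1 array left out it also turned for GSDME (-1.94 to 0.11) without the JJN3 IRE1-labelled array, as for XBP1, for ELANE (-0.00211 to 0.32) without the RPMI-8226 XBP1-labelled array, and for IGLC1 (-0.69 to 0.0423), HBD (-0.0337 to 0.61) and ASPH (-0.17 to 1.7) without the JJN3 XBP1-labelled array. The cause was not tested. The interaction gave 1 gene, P2RY10, with robust variance (adjusted p = 0.0486) and 0 under the 13 other alternatives run. It could not be fitted with only the 4 shRNA arrays or without 1 of them, was not run without the block, since the line is part of its model, and 2-fold counts need all 4.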
